A study of Danio rerio with 15 samples.

Results

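Libraries S1, S6 and S11 were 3 of the 15 RNA sequencing libraries of this series, made from dissected heads of Danio rerio (zebrafish) at 2 days after fertilization, and they held 1 library from each of the 3 treatment groups. S1 came from embryos injected with phenol red, a tracer dye, S6 from embryos given a guide RNA against ncapg2 alone, and S11 from embryos given the guide RNA together with Cas9, the nuclease that it directs to the gene. The other 12 libraries were 4 from each group (S2 to S5, S7 to S10 and S12 to S15). The trio was chosen from the measured values. The value of each gene in each library was placed on a log2 scale after adding 1, the mean of its treatment group was subtracted, and the 3 libraries in the leading column of each group stood apart from the rest. The difference between these 3 libraries and the other 12 is therefore a description of what was selected, and no test was read from it.

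All embryos came from natural matings of wild-type adults kept in a light and dark cycle, were reared at 28 °C and were pooled 20 to a library. RNA was extracted with Trizol, captured with oligo-dT beads and prepared with a stranded kit. The series design calls the 5 libraries of a group biological replicates. The clutch, hour of collection, dissection and sequencing lane of single libraries are not stated in the sources used here. Embryos injected with a guide RNA and Cas9 are mosaics, in which cells can carry different edits. The guide RNA bears a different number in the sample titles and in the treatment labels and is called the guide RNA here.

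The zebrafish liver secretes most proteins of the blood plasma, including carriers of lipid, iron and hormones, clotting factors and complement. At this stage the liver bud, the pancreas and the front parts of the gut and pronephric kidney lie in the anterior trunk over the yolk. Hox genes are ordered by paralog number along the body axis, low numbers being expressed from the hindbrain backwards and high numbers in the trunk, fins and tail. Hatching gland cells lie over the head and yolk sac, hold the enzymes that dissolve the egg envelope, and release them at hatching. Transcripts of light-responsive and clock genes rise and fall with the day in most zebrafish tissues.

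Whole reads recovered from the deposited values totalled 36.44 M (M, mega) in S1, 43.99 M in S6 and 44.36 M in S11, and 34.97 to 49.3 M in the other 12. The mean was 41.59 ± 4.47 M (SD, n = 3) in the trio and 42.1 ± 4.7 M (SD, n = 12) in the rest. The read total was not used to choose the trio, and it did not differ beyond the spread between libraries (log2 difference -0.015, two-sided exact permutation test within treatment groups, p = 0.872, where the possible arrangements allow no p under 0.008). The head origin was visible in every library. Lens genes took 9342 to 12201 of each M recovered reads in the trio and 10565 to 14463 in the rest, and photoreceptor genes took 15893 to 16985 and 14491 to 18647. The targeted gene ncapg2 (ENSDARG00000060023), a condensin II subunit, followed the treatment and not the trio, with normalized counts of 834 in S1, 988 in S6 and 423 in S11. The other phenol red and guide RNA libraries held 754 to 979, and the other libraries with Cas9 held 373 to 505. Its difference between the trio and the rest was 0.03 ± 0.08 (SE) on the log2 scale, and none of the 8 condensin genes was set apart. Over all genes tested, 4.65% were set apart in either direction.

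A gene is called set apart here where the centred values of all 3 trio libraries lay above, or all below, those of the other 12, and the mean difference was at least 1.5-fold. Of 22265 genes tested, 835 (3.75%) were set apart as higher in the trio and 201 (0.903%) as lower. The higher genes thus outnumbered the lower ones at this fold limit, although the median difference over all tested genes was -0.0003 on the log2 scale. With no fold limit the counts were alike, at 2478 higher and 2486 lower. The same rule applied to S2, S7 and S12 gave 0.561% of the genes as higher and 0.683% as lower, and applied to S5, S10 and S15 it gave 0.588% and 0.831%. Without S11 the number of lower genes rose from 201 to 321. Differences below are log2 differences of normalized count + 1, trio minus the other 12 within treatment groups, with the SE of the fit. The fit treats the libraries of a group as independent of each other and of those in other groups. Levels are normalized counts. Because groups were centred, the uncentred values of some set-apart genes overlap, and this is said where it occurs.

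**Figure D1:**
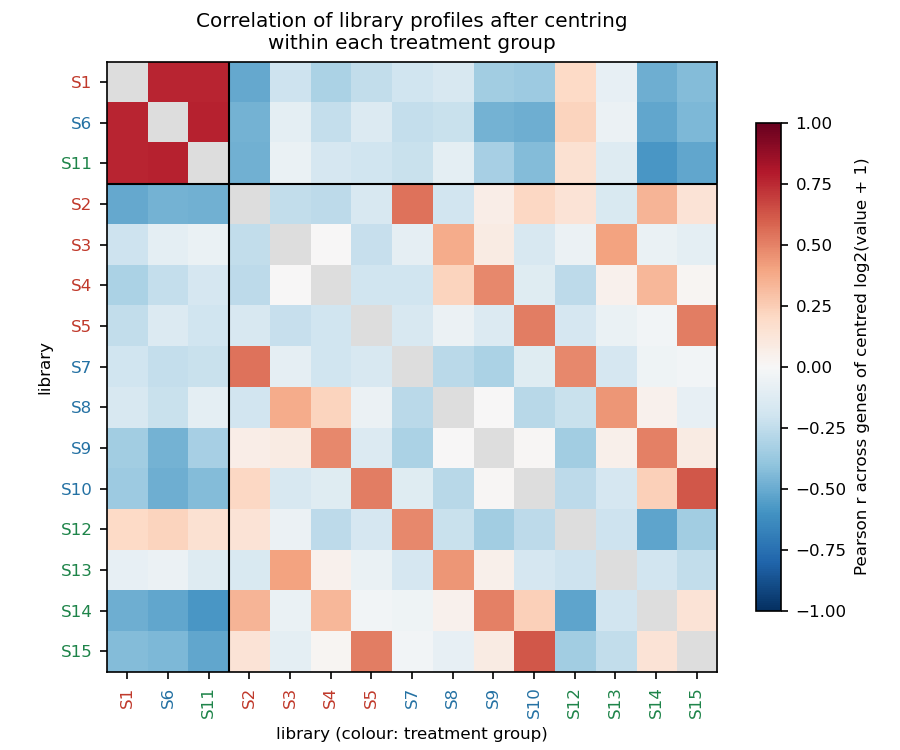
Pearson correlation across genes between the centred profiles of every pair of libraries, with S1, S6 and S11 placed before the black lines and library names coloured by treatment group. The 3 pairs within the trio reach 0.76 to 0.77, while trio libraries and libraries of other groups outside the trio range from -0.52 to 0.22.

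The profiles of the trio were alike across the treatments. Across genes, the correlation of centred values was 0.76 to 0.77 for the 3 pairs within the trio. It was -0.52 to 0.22 (median -0.21) for the 24 pairs of a trio library and a library of another group outside the trio. Each group was centred on a mean that includes its trio library. Positive values within the trio therefore bring negative ones on average with the others, which are no separate result. For the 48 pairs of other libraries of different groups it ranged from -0.35 to 0.62, and the highest of these was that of S10 with S15. Likeness across treatments was thus also seen outside the trio: S5, S10 and S15 gave 0.51 to 0.62, S3, S8 and S13 0.37 to 0.44, S4, S9 and S14 0.33 to 0.50, and S2, S7 and S12 0.14 to 0.54. All of these were below the values within the trio. These are values of the kind that chose the trio, and genes are not independent replicates.

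Plasma protein and liver genes held the widest shift. Of 47 tested genes of a yolk and liver list, 32 were set apart as higher, against 3.75% of all genes tested, and none as lower. A positive difference was seen in 46 of the 47, and the median difference was 2.66. The list score, the mean centred log2 value of its members, was 1.83 in S1, 2.05 in S6 and 1.98 in S11. In the other 12 it ran from -3.16 in S14 to 1.44 in S12, with a median of -0.38. The summed level of the list was 2541 to 3492 per M reads in the trio and 376 to 1794 in the rest. In bulk RNA, more cells of a type and more RNA per cell cannot be told apart.

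Among carriers, tfa (ENSDARG00000016771), the iron transporter transferrin, held 16793 in S1, 12343 in S6 and 11839 in S11. The other 12 held 216 to 6086, with a median of 2361. The groups did not overlap and the difference was 2.77 ± 0.88. Apolipoprotein apoa1b held 27818, 20846 and 21436 in S1, S6 and S11, and 329 to 13183 (median 4337) in the rest. Its partner on lipoproteins, apoa2, differed by 2.73 ± 0.96. The liver fatty acid-binding protein fabp10a, a standard marker of zebrafish hepatocytes, held 2190, 1483 and 1479 in the trio and 17.6 to 820 (median 274) in the rest, a difference of 3.02 ± 1.05. The thyroid hormone carrier ttr was listed at 0 in S2 and at up to 90.9 elsewhere outside the trio, against 253, 177 and 215 in S1, S6 and S11. The sex steroid carrier shbg held 400, 212 and 254 in the trio and at most 129 in the rest.

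Clotting and complement genes were shifted by similar amounts. The fibrinogen chain fgb held 1383, 1069 and 1029 in S1, S6 and S11 and 14 to 584 in the rest, a difference of 2.81 ± 0.95. Prothrombin (f2), plasminogen (plg) and antithrombin (serpinc1) differed by 2.72 ± 0.99, 2.61 ± 0.96 and 2.65 ± 0.82. The terminal complement component c9 held 1689, 1255 and 1406 in the trio and 17.9 to 673 in the rest. The complement factor B gene bfb held 147, 96.2 and 130 against 1 to 35, a difference of 3.50 ± 0.79. Families were counted after the values were seen. Of these, 16 of 26 complement genes, 11 of 15 coagulation genes and 10 of 23 serpins were set apart as higher, and none as lower. Over all genes tested, 3.75% were set apart as higher. Cytochromes P450, enzymes that oxidize steroids and foreign compounds, counted 16 higher and 1 lower of 69, and cyp2p9 (267, 238 and 191 against 1.1 to 74.3) led them with 3.85 ± 0.91.

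Not every gene of the list was set apart. The retinol carrier rbp4, which is also expressed outside the liver, was not shifted in this way: the trio held 16294, 15023 and 13534, and the difference was 0.12 ± 0.09. Apolipoproteins apoa1a and apobb.1 differed by 3.36 ± 1.57 and 2.66 ± 1.08, but their groups overlapped. Across the other 12 libraries the same genes varied widely, with S14 and S2 at the low end and S12 at the high end. Of the 32 set-apart list members, 20 lost the call when at least 1 library was left out and 19 lost it without S11, after which the guide RNA plus Cas9 group was centred without its highest library. The median of the list without each library in turn lay between 2.31 and 2.89, and without both S2 and S14 it was 2.15.

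Some of the genes higher in the trio also varied with the liver list among the other 12 libraries. Of the 835, 263 (31.5%) had a Pearson correlation above 0.7 with the yolk and liver score across the other 12 libraries, list members included, against 2.07% of all tested genes. This threshold was chosen after seeing the data. The remaining 572 did not reach it, and of the 201 lower genes 3 (1.49%) did. The median correlation was 0.44 for the 835 higher genes and 0.01 for all tested genes, so genes below the threshold could also vary with the liver score.

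**Figure D2:**
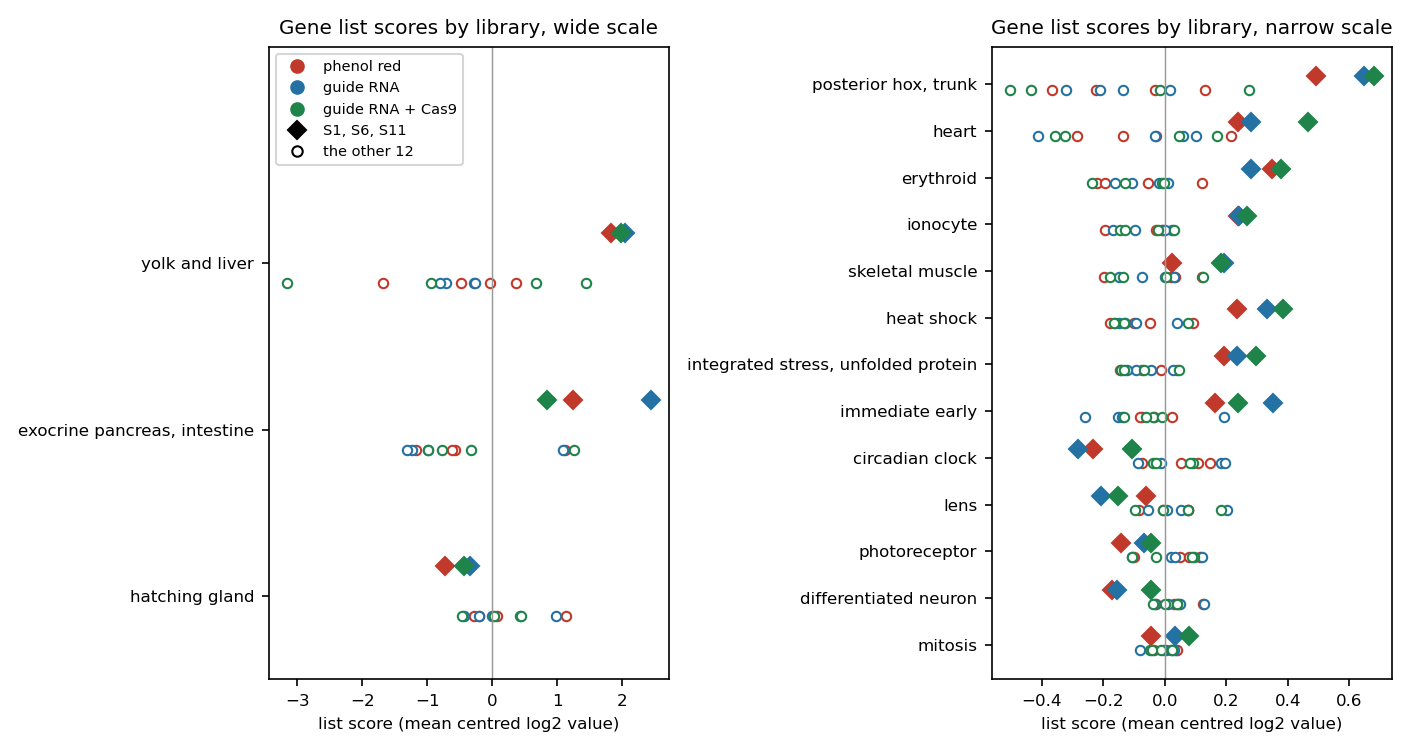
List scores (mean centred log2 value of the tested members) of 16 gene lists in each library, on a wide scale (left) and a narrow scale (right). Diamonds are S1, S6 and S11, open circles the other 12, and colours the treatment group. Trio diamonds lie to the right of all circles for yolk and liver, posterior hox, heart, erythroid, ionocyte, heat shock and unfolded protein lists, and to the left for clock and neuron lists. For the pancreas, skeletal muscle, immediate early, hatching gland, lens, photoreceptor and mitosis lists at least 1 diamond lies within the range of the circles.

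Some gut genes were also set apart. Of 24 tested genes of a pancreas and intestine list, 5 were set apart as higher, against 3.75% of all genes tested. None was lower, and the median difference was 1.99. The 5 were not digestive enzyme precursors of the exocrine pancreas. The intestinal fatty acid-binding protein fabp2 held 703, 851 and 563 in S1, S6 and S11 and 180 to 398 (median 274) in the rest, a difference of 1.36 ± 0.21. The brush border protein vil1 held 924, 1039 and 1057 against 525 to 788. The intestinal transcription factor cdx1b held 14.8, 24.3 and 22.9 against 0.92 to 9.62. It was tested only through the trio, as no other library reached the value of 10 that the filter asks for. The chitinase chia.2 held 95.4, 142 and 51.4 against 11 to 56.2, so that S11 overlapped uncentred, and differed by 1.80 ± 0.36. The annexin anxa2b differed by 1.60 ± 0.29. The call of cdx1b was lost without S2 and that of chia.2 without S6.

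Pancreatic proenzymes did not separate the trio. Trypsin (try) held 88, 488 and 67 in S1, S6 and S11, but also 149 in S5, 170 in S8 and 127 in S13, and 12 to 33.6 in the other 9. Chymotrypsinogen ctrb1 showed the same 6 libraries high: 93.3, 367 and 29.4 in the trio, 123 in S5, 99.4 in S8, 114 in S13 and at most 7.26 elsewhere. The list score of S13 (1.25) was above that of S11 (0.84). The median of this list was 1.199 without S6, against 1.99 with it, S6 being the library in which these enzymes were highest.

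Some genes known from the pronephric kidney and from ionocytes were set apart. No list of kidney genes was tested, and cdh17 and slc20a1a are members of the posterior hox and trunk list. The pronephric and intestinal cadherin cdh17 held 739, 786 and 701 in S1, S6 and S11 and 97.7 to 337 (median 247) in the rest, a difference of 1.81 ± 0.37. The pronephric phosphate transporter slc20a1a held 936, 980 and 1187 against 284 to 594. The glucose transporter slc5a2, chosen after its values were seen, differed by 1.68 ± 0.37. Ionocytes are skin cells that exchange salt and acid with the water. Of 29 ionocyte genes, 5 were set apart as higher, against 3.75% of all genes tested, none as lower and 24 not at all. The median was 0.11, and 0.058 without S1. The summed level of the ionocyte list overlapped, at 1385.8 to 1434.9 per M reads in the trio and 1288 to 1444.8 in the rest. The ammonia transporter rhcgl1 held 678, 867 and 412 in the trio and 40.7 to 206 in the rest, a difference of 2.42 ± 0.35. Its relative rhcga held 1596, 2063 and 2439 in the trio, above the highest of the rest (1214), and lost the call without any of S3, S4, S5, S6 or S11. The carbonic anhydrase ca15a and the cell surface gene ceacam1 differed by 0.73 ± 0.13 and 0.66 ± 0.11.

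**Figure D3:**
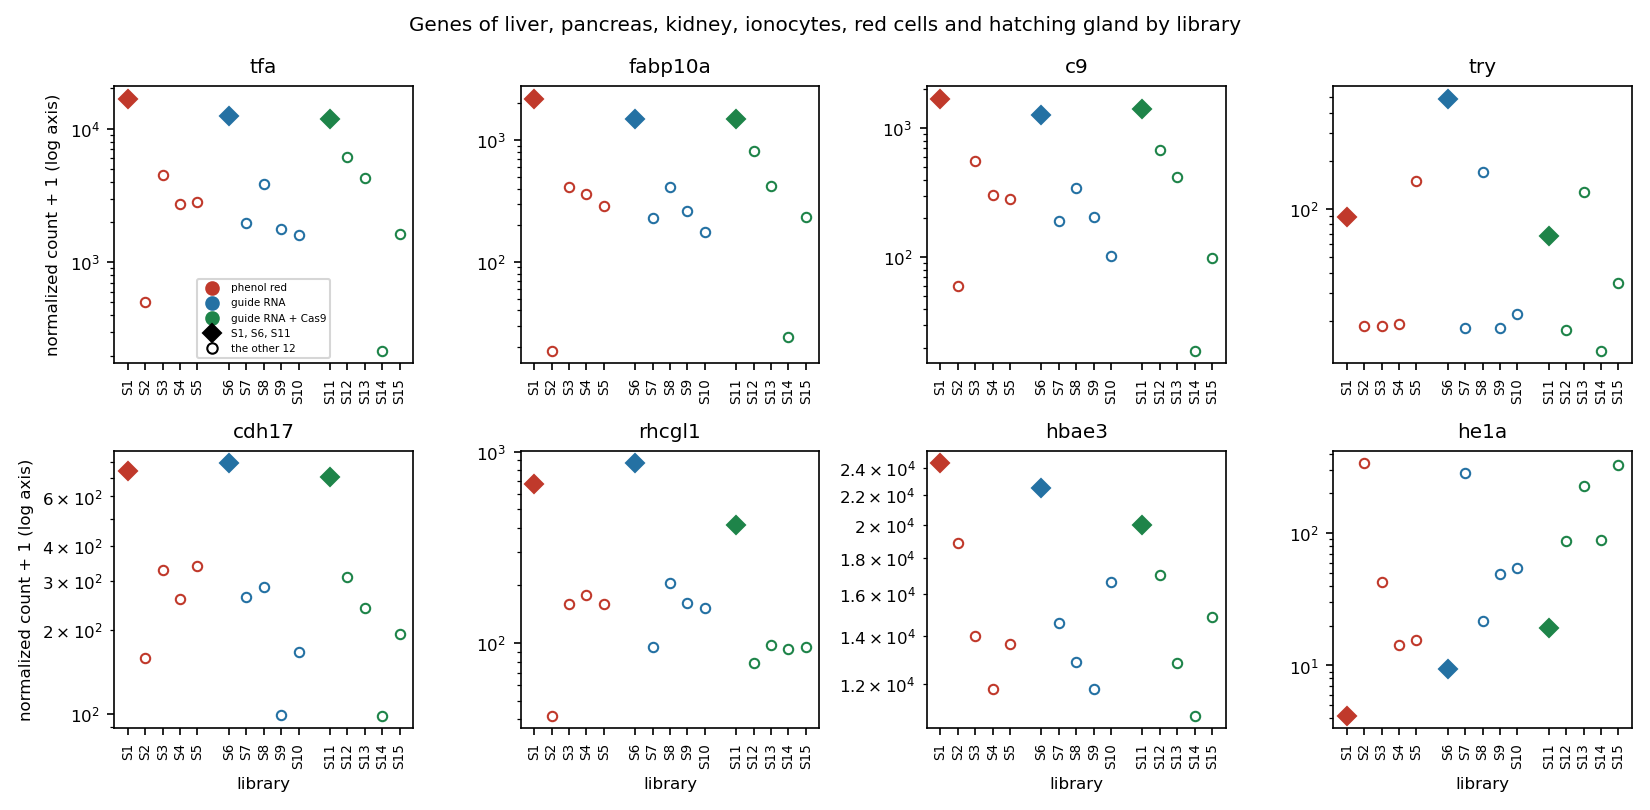
Normalized count + 1 (log axis) of 8 genes in each of the 15 libraries, with S1, S6 and S11 as diamonds, the other 12 as open circles and colours for the treatment group. Diamonds are above all circles for tfa, fabp10a, c9, cdh17, rhcgl1 and hbae3, while try is also high in S5, S8 and S13 and he1a is low in the trio and in S4, S5 and S8.

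Among the tested hox genes, the median difference was larger at higher paralog numbers. Grouped by paralog after the values were seen, 1 of 13 tested genes of paralogs 1 to 4 was set apart as higher, with a median difference of 0.18. For paralogs 5 to 8 this was 6 of 12 with a median of 0.86, and for paralogs 9 to 13 it was 5 of 9 with a median of 1.18. None was set apart as lower, where 3.75% of all genes tested were higher and 0.903% lower. Among the set-apart hox genes, hoxa9b and hoxd10a reached the value of 10 needed for testing in 3 libraries only with the trio counted. Both enter the count and median of paralogs 9 to 13, which were not worked out without them. Such a filter lets in genes with few reads more readily where the trio is high. Whether hox genes that were not set apart passed in this way was not examined. The levels of posterior members were low: hoxa11b held 50.9, 26.1 and 40.4 in S1, S6 and S11 and 9.06 to 26.8 in the rest, so that S6 lay within the uncentred range of the rest, and its call was lost without S1 or S11. hoxd12a held 22.3, 16.8 and 18.4 against 4.32 to 14. Of the whole posterior hox and trunk list, 8 of 21 genes were set apart as higher and 1 as lower, with a median of 0.97. The lower one, tbx16, a transcription factor of early mesoderm, held 18, 23.4 and 19.3 against 26.1 to 54.3. With a pseudocount of 10 the median of this list was 0.56.

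The red cell and heart lists had smaller medians. Of 27 erythroid genes, 8 were set apart as higher, against 3.75% of all genes tested, and none as lower. The list median was 0.44. The embryonic alpha globin hbae3 held 24367, 22523 and 20007 in S1, S6 and S11 and 10840 to 18871 (median 13810) in the rest, a difference of 0.67 ± 0.14. The heme synthesis enzyme alas2 differed by 0.78 ± 0.13 and the erythroid factor klf1 by 0.86 ± 0.21. Of 18 heart genes, 4 were higher and none lower, with a median of 0.45. The summed level of the heart list was not raised. It was 823.8, 757.5 and 976 per M reads in S1, S6 and S11, against 819.9 to 1138.5 (median 877.8) in the rest. The myosin light chain myl7 held 1237, 957 and 1064 against 402 to 935, and gata4, a transcription factor of heart and endoderm, held 99.6, 72.9 and 88.1 against 21.9 to 61.8. Of 42 skeletal muscle genes 5 were higher, with a median of 0.19. Among these, desmb reached the value of 10 needed for testing in 3 libraries only with the trio counted. The muscle list score overlapped, at 0.02 in S1 against -0.2 to 0.13 in the rest. Its summed level in S1, 10406.5 per M reads, was also under the highest of the rest (10515.7). The parvalbumins pvalb1 and pvalb2, calcium buffers of fast muscle, differed by 0.80 ± 0.10 and 0.75 ± 0.10. Actinodin and2, a fibre protein of the fin fold chosen after its values were seen, differed by 1.40 ± 0.38.

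Some chaperone genes were set apart too. Of 38 heat shock genes, 13 were set apart as higher and 1 as lower, against 3.75% and 0.903% of all genes tested. The list median was 0.31. The list scores were 0.23, 0.33 and 0.39 in S1, S6 and S11, and -0.18 to 0.09 in the rest. The summed level of the list overlapped, at 9523.1 to 10098.4 per M reads in the trio and 8874.2 to 10041.5 in the rest. Of the 13, hspb8 alone correlated above 0.7 with the liver score across the other 12 libraries (0.84). The widest difference was in serpinh1b (ENSDARG00000019949), the collagen chaperone also called Hsp47. It held 3703 in S1, 6005 in S6 and 5216 in S11, against 831 to 1229 (median 1117) in the other 12. The groups were far apart and the difference was 2.19 ± 0.13. The Hsp70 partner dnaja1 held 2457, 2780 and 2955 against 1188 to 1384, a difference of 1.07 ± 0.05. The cytosolic Hsp90 gene hsp90aa1.2 held 4146, 5610 and 6429 against 1990 to 3120, and the glucocorticoid receptor co-chaperone fkbp5 held 5731, 7283 and 7070 against 1291 to 4893. The small heat shock gene cryabb was the lower one, with 17, 16.8 and 15.6 against 31.2 to 50.5.

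Set-apart folding factors of the endoplasmic reticulum differed by smaller amounts. Of 44 integrated stress and unfolded protein genes, 12 were set apart as higher, against 3.75% of all genes tested, and none as lower. The list median was 0.28. The lists share members: hspa5 and hsp90b1 are also counted among the heat shock genes, and atf3 among the immediate early genes below. The chaperone hspa5 (BiP) held 10825, 13309 and 14962 in S1, S6 and S11 and 7072 to 9962 in the rest, a difference of 0.66 ± 0.10. The disulfide isomerases pdia4 and pdia6 differed by 0.84 ± 0.12 and 0.82 ± 0.07, and the lumenal Hsp90 gene hsp90b1 by 0.87 ± 0.14. Of 35 immediate early genes, which respond within minutes to stimuli, 6 were higher and none lower, with a median of 0.18 that was 0.098 without S6. The score of this list was lower in S1 (0.165) than in S7 (0.194). The nuclear receptor nr4a1 held 330, 762 and 570 against 209 to 313, so that S1 lay just above the rest. The transcription factor jund held 2893, 4441 and 3531 against 1785 to 2482. The glucocorticoid-responsive factor klf9, chosen after its values were seen, held 1173, 888 and 1171 against 192 to 887. The call of fkbp5 was lost without S6 or S11, that of hspa5 without S11 and that of nr4a1 without S6.

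Among 43 clock and light-responsive genes, 8 were set apart as lower, 1 as higher and 34 not at all, with a median of -0.26, against 0.903% lower over all genes. The DNA photolyase cry5 held 321, 179 and 229 in S1, S6 and S11 and 492 to 839 (median 731) in the rest, a difference of -1.54 ± 0.14. Its relative cry-dash held 670, 488 and 598 against 1041 to 1378. The light-induced clock gene per2 held 4018, 3113 and 3978 against 4518 to 7827, and its call was lost without S1. The pineal melatonin enzyme aanat2 held 72.1, 71 and 97.3 against 136 to 345, a difference of -1.42 ± 0.23. The ultraviolet damage sensor ddb2, the nuclear receptor nr1d4b and the core factor clocka differed by -0.74 ± 0.08, -0.80 ± 0.11 and -0.62 ± 0.08. The F-box gene fbxl3l, outside the list, held 131, 98.1 and 127 against 217 to 451.

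Other clock genes were not set apart as lower, although 32 of the 43 had a negative difference and 11 a positive one. The repressor cry1ba was the higher one, with 31458, 32069 and 30986 against 15646 to 25277. The period genes per1a and per3 and the nuclear receptor nr1d1 were not set apart, with differences of 0.01 ± 0.32, -0.29 ± 0.14 and 0.30 ± 0.36. The list score was -0.24, -0.28 and -0.11 in S1, S6 and S11 and -0.09 to 0.20 in the rest, so that S11 was close to the lowest of the others. The summed level of the clock list overlapped, at 2899.4 to 3182 per M reads in the trio and 2720 to 3320.1 in the rest.

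**Figure D4:**
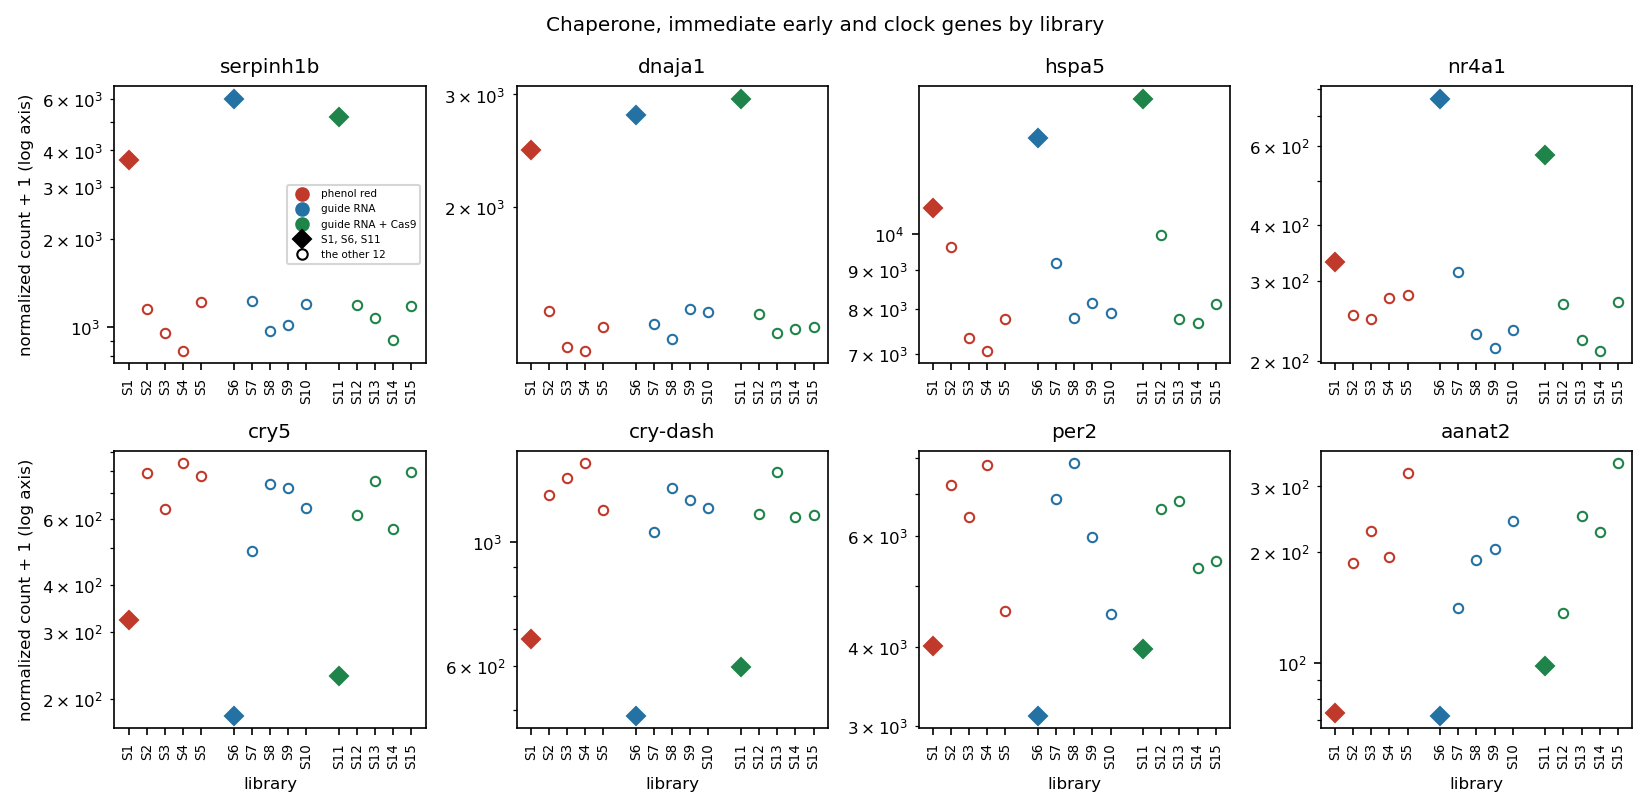
Normalized count + 1 (log axis) of 4 chaperone and immediate early genes (top) and 4 clock and light-responsive genes (bottom) in each library, with S1, S6 and S11 as diamonds, the other 12 as open circles and colours for the treatment group. Diamonds lie above every circle in the top row and below every circle in the bottom row, with the widest gap for serpinh1b and a narrow one for S1 in nr4a1.

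The hatching enzymes he1a and he1b were the only 2 of 9 hatching gland genes set apart, and both were lower. Over all genes tested, 0.903% were set apart as lower. he1a held 3.18, 8.41 and 18.4 in S1, S6 and S11 and 13.3 to 336 (median 69.4) in the rest, a centred difference of -3.03 ± 0.93. Uncentred, S11 overlapped with S4 and S5, which held 13.3 and 14.5. he1b held 5.3, 6.54 and 10.1 against 8.15 to 162, with S11 overlapping uncentred, and its call was lost without any of S1, S2, S7 or S11. The protein disulfide isomerase gene agr2 of the same list, expressed in secretory cells, was not set apart (0.31 ± 0.09). Nor was ctslb (-0.70 ± 0.91). The list held 4 positive and 5 negative differences, with a median of -0.142 that was 0.048 without S1. Its scores overlapped, at -0.72, -0.34 and -0.44 in S1, S6 and S11 against -0.46 to 1.13 in the rest. The summed level of the list was not lower. It was 474.1, 449.9 and 421.7 per M reads against 358.8 to 450.9 (median 391.3).

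Head tissues themselves showed small shifts. None of 31 lens genes was set apart, but 27 had a negative difference and the median was -0.15. Among 42 photoreceptor genes, rho, the rod opsin, was lower (30270, 45458 and 53878 against 46919 to 92363, with S11 overlapping uncentred) and guca1c was higher, and both calls were lost without single libraries, S1 and S15 among them. The median of the list was -0.10. Of 31 neuronal genes 1 was set apart, the sodium pump subunit atp1a3a, with 24170, 25882 and 37842 against 42747 to 61311, a difference of -0.84 ± 0.12. The list median was -0.15, and the summed level was 7398 to 8602 per M reads in the trio and 8397 to 9883 in the rest. None of 35 neural crest and cartilage genes or 23 neural progenitor genes was set apart, with medians of -0.08 and -0.05, the latter -0.094 without S1. The neural crest and cartilage score was lower throughout the trio, at -0.06, -0.13 and -0.06 against -0.04 to 0.08 in the rest. The matrix glycoprotein tnc was lower, with 8310, 9500 and 11800 against 13382 to 17342. Of 47 mitosis genes, 79 ribosomal protein genes and 30 genes of the p53 response, none was set apart. Over all genes tested the share in either direction was 4.65%, and whether these lists fall short of it was not tested. The p53 list score was still higher throughout the trio, at 0.06 to 0.08 against -0.06 to 0.03 in the rest.

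A few genes were near 0 in the trio and well expressed elsewhere. The gene named rrm2 with identifier ENSDARG00000020711, a subunit of ribonucleotide reductase, which makes DNA precursors, held 2.12, 1.87 and 2.75 in S1, S6 and S11, that is 2 to 3 reads. The other 12 held 165 to 509 (median 352). It was the only gene with 3 reads or fewer in every trio library and 50 or more in every other library, and its difference of -6.66 ± 0.30 depends on the added 1. A second gene of the same name, ENSDARG00000078069, went the other way, with 1286, 1360 and 1237 against 763 to 1004, a difference of 0.55 ± 0.08. The sum of both was 1288, 1362 and 1239 in the trio and 1119 to 1295 in the rest, a difference of 0.08 with overlapping groups. Whether both genes are near-identical copies that share reads in counting was not tested, so the level of each gene alone is uncertain. The other subunit gene rrm1 and the related rrm2b differed by -0.17 ± 0.08 and 0.00 ± 0.08.

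Other genes near 0 in the trio included clone-named loci and taste receptors. si:dkey-22i16.9 was listed at 0, 0.93 and 0 in S1, S6 and S11 and at 46.5 to 119 in the rest. si:ch211-226f24.4, chosen after its values were seen, was at 0 in all 3 and at 18.3 to 67.8 in the rest. The bitter taste receptor genes tas2r200.1 and tas2r200.2, also chosen afterwards, held at most 2.8 and 2.12 in the trio. The rest held 21.1 to 53.9 and 14.1 to 47.2. The integrin gene itga2.3 was lower but not near 0, and held 15.9, 17.8 and 16.5 against 50.1 to 163.

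Some genes with on and off levels were shared with libraries outside the trio. The class I histocompatibility gene mhc1uma held 0, 1.87 and 1.84 in S1, S6 and S11, 1.1, 0 and 0 in S2, S7 and S12, and 41.3 to 110 in the other 9. Its relative mhc1ula held 0, 2.8 and 8.26 in the trio, 1.1, 1.07 and 0.87 in S2, S7 and S12, and 49 to 116 in the other 9. The clone-named gene CR759879.1 held 160, 150 and 128 in the trio, 30.7 to 50.8 in S4, S5, S9, S10, S14 and S15, and at most 1.07 in the other 6. Of 25 tested histocompatibility genes only mhc1uka was set apart, a share near the 4.65% of all genes tested set apart in either direction. It held 57.2, 40.2 and 49.6 against 10.7 to 46.5, so that its uncentred ranges overlapped. Whether class I genes share reads in counting was not tested, so the level of each gene alone is uncertain.

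**Figure D5:**
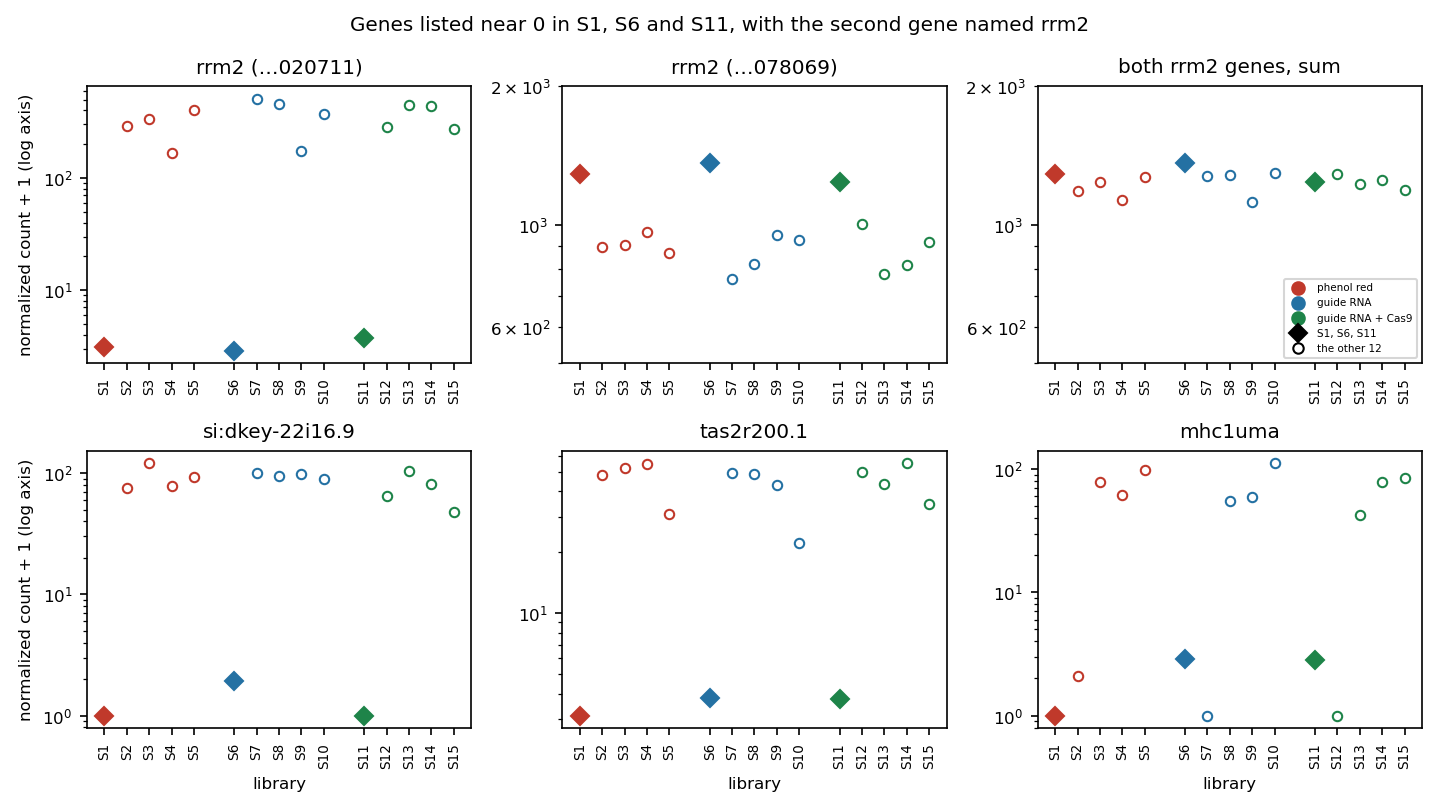
Normalized count + 1 (log axis) of both genes named rrm2, their sum, and 3 genes near 0 in S1, S6 and S11, in each library, with S1, S6 and S11 as diamonds, the other 12 as open circles and colours for the treatment group. One rrm2 gene is near 0 in the trio while the other is above all circles, their sum overlaps, and mhc1uma is near 0 also in S2, S7 and S12.

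The set-apart genes of all these lists were chosen by the same 3 libraries, so their shifts cannot be told apart by sample. All libraries are labelled 2 days after fertilization. The part of finer stage, dissection, clutch and hour of collection in the differences was not tested, as the labels give none per library.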

How the data were processed

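Per the labels, each library was made from poly(A) RNA of pooled embryo heads with a stranded kit. Per the submitters' processing notes, the tools were STAR, HTSeq, DESeq2, bcl2fastq, cutadapt and Trim Galore. The genome build, annotation, strand setting and tool versions were not given in the sources used here. In 3 tables covering the group pairs, the authors deposited a normalized signal for each gene and library, which is the count over a size factor of that library. Columns of log2 fold changes, a test statistic (score) and p-values, also deposited by the authors, were not used. Tables with a library in common gave it identical values.

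Tables were joined on the gene identifier (23009 genes, 493 without a name). The group of a column followed from the 2 tables in which it appears. All values (100%) were whole multiples of the value of 1 read within 0.001 of a read, which gave whole reads. The filter kept genes that reached a value of 10 in 3 libraries (22265 genes). Some genes high in the trio, such as cdx1b, hoxa9b, hoxd10a, desmb and cbln5, passed it only through the trio libraries. log2(value + 1) was centred on the group mean, and a gene was set apart where all 3 trio libraries lay above or below the other 12 by at least 1.5-fold. Differences and SE came from limma 3.58.1 (trend, robust, treatment group and trio as terms) in R 4.3.3. Such differences understate the change of low genes. As the trio was proposed from these values, counts at an adjusted p of 0.05 from limma, from edgeR 4.0.16 (quasi-likelihood) and from DESeq2 1.42.0 on recovered reads are given as a description. The steps were tested on simulated data.

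The members and the 33 gene lists (1038 of 1148 symbols matched, 41 through RefSeq synonyms of assembly GRCz12tu) were chosen with earlier results of these data known. Named genes were ncapg2, the 12 largest rises and falls with a mean of 50 or more and up to 4 clone-named genes per direction, genes with on and off levels, and up to 4 members per list; others are stated as chosen after their values were seen, and further members of a described list are named to show its make-up. Some results are not reported here. Alternatives were other pseudocounts, filters and fold limits, TMM rescaling, centring on the other 4 libraries of a group, and each library left out; leaving out S2 with S14 was added after seeing the data.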

Additional observations from a re-analysis of the deposited data

Results flagged for a closer look

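In each treatment group, the read total of 5 libraries, and the list scores and log2 values of the described genes in the 4 libraries outside the trio, were searched for a library far from the others by Dixon's test. Of 492 groups of values, 28 (5.69%) held such a library, and chance flags about 1 in 20 groups. The share is near that of chance, so a single flag may be chance. Genes that vary together, such as liver genes, do not give independent groups, so several flags can stand for 1 event. Of the 28, 12 were library S2 of phenol red. Among the 4 libraries S2 to S5, S2 was lowest in liver genes on the log2(value + 1) scale: agxtb was 4.83 against 7.98 to 8.36, ces2 5.78 against 8.63 to 9.16, cyp2p9 1.07 against 4.46 to 4.95, and f2 5.56 against 8.13 to 8.44. It was also lowest in fabp10a (4.22 against 8.16 to 8.69), lipca (3.94 against 4.56 to 4.60), plg (5.34 against 8.36 to 8.89), pnp4b (1.07 against 4.51 to 5.22) and shbg (1.68 against 5.77 to 6.05). Outside the liver genes, S2 was lowest in rhcgl1 (5.38 against 7.32 to 7.48), rho (15.65 against 16.14 to 16.24) and the ionocyte score (-0.19 against -0.03 to -0.01). Without S2 the liver list remained higher in the trio, as stated above for S2 and S14.

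The read total of S5 was 46.46 M against 34.97 to 37.08 M in the other phenol red libraries. In the guide RNA group, S8 had a pancreas and intestine score of 1.09 against -1.31 to -0.98. S7 was apart in agr2 (12.08 against 11.87 to 11.89), dnajc3a (9.27 against 8.89 to 8.93), gck (3.25 against 4.46 to 4.58) and nr1d4b (8.61 against 8.94 to 8.96). S10 was apart in cmlc1 (8.02 against 8.68 to 8.74), cryabb (5.01 against 5.5 to 5.55) and hoxa10b (3.47 against 4.17 to 4.26). With guide RNA plus Cas9, S12 was apart in the heat shock score (0.07 against -0.17 to -0.13), si:ch211-199o1.2 (6.69 against 6.38 to 6.4) and slc1a7a (9.48 against 9.81 to 9.86). S13 was apart in cry-dash (10.38 against 10.11 to 10.13) and S14 in si:dkey-88j15.3 (3.90 against 6.60 to 7.02). S15 was apart in hoxa9b (1.99 against 3.41 to 3.47) and slc12a10.3 (4.57 against 5.10 to 5.13).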

How the results depend on the processing

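Of 136 set-apart genes examined, 87 kept their call when each library was left out in turn and 49 lost it without at least 1; over 25 settings no difference of a named gene changed sign among those called. Counts of higher and lower genes were 456 and 71 at a limit of 2-fold, and 2478 and 2486 with no limit. They were 3169 and 3750 with limma, 3466 and 3502 with edgeR and 3342 and 4016 with DESeq2 at an adjusted p of 0.05, which count genes whose libraries overlap. Leaving out each library gave 797 (S6) to 934 (S12) higher and 175 (S1) to 321 (S11) lower genes, and without both S2 and S14 there were 863 and 202. Other pseudocounts, filters, TMM rescaling and centring left both counts within 1.5 times. The median of the posterior hox and trunk list was 0.56 with a pseudocount of 10, and the erythroid median ranged from 0.329 (without S1) to 0.491 (without S12) with each library left out. The read total difference ranged from -0.033 to 0.016. The cause of these changes was not tested. No paired analysis was possible because the columns carry no replicate number, and the differences come from no test. No label states whether column order pairs samples. Outside the trio, libraries at the same column position in different groups had profile correlations of 0.14 (S2 with S12) to 0.62 (S10 with S15). Whether column position links samples was not tested. Every SE and SD given here treats the libraries as independent. If position did link samples, the trio would be a linked set and its SE would not measure the spread between such sets. Genes with few reads, such as posterior hox genes, are limited by depth.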

Other observations

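By gene order in a RefSeq table of assembly GRCz12tu, 24 of 144 lower genes with a position (16.7%) had another lower gene within 5 tested genes on either side, against 7.09% of all tested genes with a position. For the higher genes this was 268 of 714 (37.5%) against 30.94%. Lower genes with another lower gene in this range included the mucins muc5.1 and muc5.2 (-0.97 and -1.18). They also included the bitter taste receptors tas2r200.1 and tas2r200.2 (-3.60 and -3.82). Further ones were zgc:172109, si:dkeyp-32g11.7 and si:dkeyp-32g11.9 (-3.31, -1.74 and -2.11). These nearby genes are given as values and were chosen after they were seen. Whether they are near-identical copies that share reads was not tested.

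Solute carriers, the membrane transporters of ions and nutrients, counted 40 higher and 4 lower of 368 tested, with a median difference of 0.0. Over all genes tested, 3.75% were set apart as higher and 0.903% as lower. UDP glucuronosyltransferases, which conjugate hormones and foreign compounds, counted 7 higher of 24. Cerebellin family genes, small secreted proteins, counted 6 higher of 13, and cbln5 held 74.2, 43 and 51.4 in S1, S6 and S11 and a median of 4 in the rest. Outside the trio, cbln5 did not reach 10 in 3 libraries, so it was tested only through the trio. Keratins counted none of 18 in either direction, where 4.65% of all genes tested were set apart. These families were grouped after the values were seen.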
